A study of Mus musculus with 2 samples.

Results

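Genes that write, remove or read histone methylation were examined for peaks of a Rac1 antibody in mouse retina, without treatment and in chronic ocular hypertension (COH). Raised pressure in the eye damages ganglion cell axons, and COH serves as a glaucoma model. The set holds 43 genes, 14 lysine demethylases, 18 lysine methyltransferases with subunits of their complexes and 11 Polycomb genes. They were chosen by name from these functions with earlier results of these data known, and may have been proposed because they carry peaks. Their peaks are those that the authors assigned to them by gene name. These are 20 of the 3078 control peaks and 12 of the 1711 COH peaks. CUT&Tag uses an antibody to hold a transposase on chromatin, and the transposase tags the DNA nearby for sequencing. Nuclei of retinas from wild-type C57BL/6 mice 7 weeks old gave 2 libraries, both made with the Rac1 antibody. Control mice had no treatment, and COH retinas were collected at 1 week. Each condition has 1 library, so its spread is unknown, no difference between the conditions was tested, and no p-value is given. Rac1 is a small GTPase best known for steering actin at the membrane, and the study searched for genes related to it.

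Histone methylation marks the state of a gene without changing its DNA. Methylation of H3K4 is found at active promoters and enhancers, that of H3K36 along transcribed genes, and that of H3K9 and H3K27 in silent chromatin. Methyltransferases, most of them with a SET domain, place these marks, and the amine oxidase Kdm1a and the large JmjC family of demethylases take them off. Polycomb proteins act in a pair of complexes, PRC2, which methylates H3K27, and PRC1, which ubiquitinates histone H2A and compacts chromatin. In the retina, as in other nervous tissue, these enzymes are known for setting the order in which progenitors form neurons and for keeping differentiated neurons in their state.

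The sequences just upstream of 6 of these genes are printed because a promoter peak lay at or beside them, in both lists for Kdm3a, Kmt2c, Kmt2d and Setd2 and in control for Kdm4a and Eed. Each is the 250 bases before the start that RefSeq gives in the build GRCm38.p6, read 5' to 3' along the gene. The windows are Kdm3a at chr6:71632918-71633167 (minus strand), Kmt2c at chr5:25498784-25499033 (minus strand), Kmt2d at chr15:98871206-98871455 (minus strand). The others are Setd2 at chr9:110532347-110532596 (plus strand), Kdm4a at chr4:118180044-118180293 (minus strand), Eed at chr7:89980977-89981226 (minus strand). Capitals mark the letters of the motifs searched.
Kdm3a: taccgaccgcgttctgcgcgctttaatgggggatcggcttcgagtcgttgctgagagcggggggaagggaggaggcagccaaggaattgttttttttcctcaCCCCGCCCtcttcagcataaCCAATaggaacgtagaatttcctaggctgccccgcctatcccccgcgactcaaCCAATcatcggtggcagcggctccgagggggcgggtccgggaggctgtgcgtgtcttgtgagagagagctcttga
Kmt2c: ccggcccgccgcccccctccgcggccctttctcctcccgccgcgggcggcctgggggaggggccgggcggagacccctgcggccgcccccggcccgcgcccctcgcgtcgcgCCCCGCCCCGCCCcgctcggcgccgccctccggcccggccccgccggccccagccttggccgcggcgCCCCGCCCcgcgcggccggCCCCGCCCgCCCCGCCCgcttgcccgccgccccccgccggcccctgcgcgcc
Kmt2d: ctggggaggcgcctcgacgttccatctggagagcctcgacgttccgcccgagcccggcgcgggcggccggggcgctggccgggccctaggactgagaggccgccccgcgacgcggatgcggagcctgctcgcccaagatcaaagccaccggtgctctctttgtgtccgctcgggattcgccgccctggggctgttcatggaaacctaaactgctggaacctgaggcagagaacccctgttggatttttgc
Setd2: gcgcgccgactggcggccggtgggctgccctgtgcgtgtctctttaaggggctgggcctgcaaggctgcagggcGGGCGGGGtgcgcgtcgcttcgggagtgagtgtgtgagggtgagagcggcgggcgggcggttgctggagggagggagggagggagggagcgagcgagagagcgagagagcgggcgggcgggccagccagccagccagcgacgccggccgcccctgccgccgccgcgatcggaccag
Kdm4a: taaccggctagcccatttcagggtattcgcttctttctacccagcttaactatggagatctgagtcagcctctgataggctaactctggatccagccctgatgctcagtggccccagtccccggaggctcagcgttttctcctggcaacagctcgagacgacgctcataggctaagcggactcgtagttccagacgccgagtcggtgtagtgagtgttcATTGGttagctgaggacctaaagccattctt
Eed: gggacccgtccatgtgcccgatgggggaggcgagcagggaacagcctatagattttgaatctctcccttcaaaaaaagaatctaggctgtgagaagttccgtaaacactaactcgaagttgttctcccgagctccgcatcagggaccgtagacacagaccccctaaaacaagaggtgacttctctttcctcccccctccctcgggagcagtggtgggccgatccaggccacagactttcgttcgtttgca

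The windows differed widely in base composition. G and C made up 91.6% of the Kmt2c window and 53.6% of the Kdm4a window, with 48 and 12 CpG dinucleotides, where the median over all 32851 RefSeq windows of this length was 52.4% and 6. The motif GGGCGGGG occurred on either strand in 3 of the 6, Kmt2c, Kdm3a and Setd2, and in 16.1% of all windows. In Kmt2c it occurred 5 times, and the pair of matches farthest from the start overlap. CCAAT occurred in 2, Kdm3a and Kdm4a, and in 33.8% of all windows. Also read on both strands, the other motifs had no match in these 6 windows. Of all windows TATAAA was found in 12.4%, CCGGAAGT in 2.88%, TGACGTCA in 1.55%, CACGTG in 6.02%, GCATGCGC in 2.26% and AAGATGGCG in 0.606%. The start in the lists and that in RefSeq were at most 73 bp apart for these genes, judged by the shift that neighbouring genes share between the builds. That shift was the commonest among neighbouring gene ends, not one that all of them shared. For Kdm3a 10 ends had it, the most of the 6, and for Eed 3, the fewest, so Eed is placed least surely. Kdm6a, also with 3, came out 602586 bp apart and Setd5, with 7, came out 27570 bp apart, and neither is printed. Measured from the start in the lists, the control peaks of Setd2 and Kdm3a spanned the whole window and that of Eed reached -252 bp, the Kdm4a peak covered its last 46 bases, and the peaks of Kmt2c and Kmt2d ended upstream of it.

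Of the 43 genes 20 had a peak in control, and every gene with a COH peak also had a control peak. The control share was 46.5% (exact Clopper-Pearson 95% interval 31.2 to 62.3), against 10.8% of 21900 protein-coding genes. In COH 11 genes had a peak (25.6%, 13.5 to 41.2), against 5.38%. The same 11 had a peak in both lists, against 3.53% of protein-coding genes. In control only 9 had one (20.9%), against 7.26%, and in COH only 0 had one, against 1.86%. The interval of that count of 0, from 0 to 8.22%, holds the 1.86%. Of the 20 genes with a control peak, 11 therefore also had a COH peak, where 32.7% of all protein-coding genes with a control peak did. Conversely, 65.5% of protein-coding genes in the COH list were in the control list, where all 11 of the set were. Promoter peaks, by the annotation class the authors gave, were found for 14 genes (32.6%, 19.1 to 48.5) in control and 8 (18.6%, 8.39 to 33.4) in COH, against 6.3% and 2.96% of protein-coding genes. Because the set may have been proposed for its peaks, its shares above those of all protein-coding genes are no independent sign of enrichment. The intervals cover counting error only, and reads copied by PCR do not count independent molecules. Whole retina holds many cell types, so fewer nuclei with a bound site and less binding per nucleus cannot be told apart.

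The control list was 1.8 times as long as the COH list. When it was reduced to as many of its strongest peaks as the COH list holds, the control count was 11, equal to the COH count of 11, but 5 genes were in both. The control peaks of Ash1l, Kdm3b, Kmt2d, Nsd1, Setd2 and Setd5, all genes with a COH peak, were then lost. The effect of this cut on all protein-coding genes was not counted, so the fall is not shown to be particular to the set. Weak binding below the threshold of the lists would not appear in them, so genes with no peak may still be bound.

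The set is made of long genes, and long genes carried peaks more often. Its median length was 44.02 kb, against 17.15 kb for all protein-coding genes, 76.99 kb for the 20 genes with a control peak and 26.59 kb for the 23 without. With all protein-coding genes divided into 5 equal bins by length, 18 of the set fell in the longest bin (57.1 kb and over). Of these, 13 were in the control list and 9 in the COH list, where 18.7% and 9.61% of all genes of that bin were. Of the 13 in the next bin, 6 and 2 were, where the shares of all its genes were 14.4% and 6.78%. Of the 12 shorter members 1, Suv39h2, had a control peak. Among all genes of the shorter bins 10.6%, 7.12% and 3.08% had one, from longer to shorter, so this count is near that background.

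**Figure D1:**
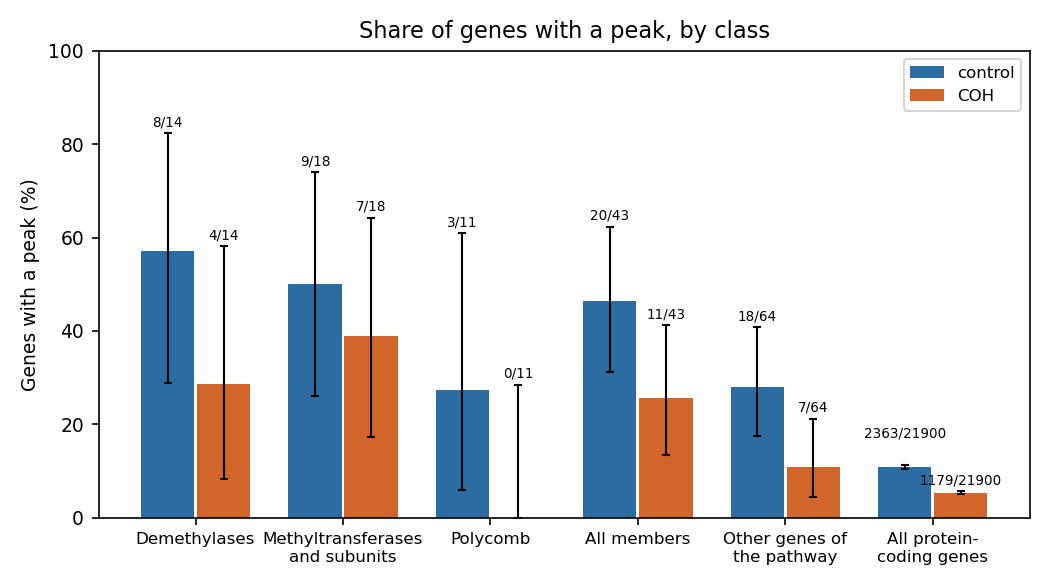
Share of genes with at least 1 peak (percent) in control (blue) and COH (orange), for the classes of the set, the whole set, 64 other genes of the same pathway and all protein-coding genes. Bars are shares, error bars exact 95% intervals and labels the counts. The shares of the set, 46.5% and 25.6%, lie above those of all protein-coding genes, 10.8% and 5.38%, and the intervals of the classes overlap each other. The set was chosen with earlier results of these data known.

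Among demethylases 8 of 14 (57.1%, 28.9 to 82.3) were in the control list and 4 (28.6%, 8.39 to 58.1) in the COH list. Over all protein-coding genes the shares were 10.8% and 5.38%. Kdm3a, which removes methyl groups from H3K9, carried the peak of highest fold enrichment of the set in both lists. In control it lay at chr6:71609732-71610516 in the promoter, with pileup 33 and fold 9.21, rank 189 of 3078. In COH it lay at chr6:71610090-71610478, also in the promoter, with pileup 25 and fold 8.19, rank 222 of 1711. The COH peak lay wholly inside the control peak and the summits were 42 bp apart. Its paralog Kdm3b also had a peak in each list, but at different places. The control peak spanned the start, with a fold of 4.82, while the COH peak, with a fold of 5.25, was annotated to a 3' UTR at -5640 bp from the Kdm3b start (negative distances lie upstream), and 5306 bp separated them.

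Kdm2a, a demethylase of H3K36 that binds unmethylated CpG islands, had overlapping peaks in the 5' UTR. Its pileup was 31 in control and 22 in COH, its fold 6.38 and 6.14, and all of the COH peak (chr19:4447398-4448168) lay inside the control peak (chr19:4447367-4448224). The 3 KDM4 enzymes of the set, which act on H3K9 and H3K36, all had a control peak, and Kdm4b alone of them had a COH peak. Kdm4d, outside the set, had no peak in either list. The Kdm4b promoter peaks, at chr17:56632659-56633152 in control and chr17:56632655-56633077 in COH, had pileups of 25 and 26 and folds of 5.50 and 6.84. Kdm4a had a promoter peak at chr4:118036952-118037286 in control, with pileup 25 and fold 6.52. This is above the control median of 5.24 over all peaks, and the nearest COH peak lay 272.7 kb from its start. The Kdm4c peak had the lowest fold of the set in control, 3.85. It lay at chr4:74170139-74170595, 9405 bp from the start in the lists, and was annotated to the 5' UTR, and RefSeq holds a second Kdm4c start 9382 bp downstream of the first.

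Kdm5c, which demethylates H3K4, and Kdm6a, which demethylates H3K27, are both on chromosome X and had promoter peaks in control only. Kdm5c (chrX:151016006-151016454) had a pileup of 10, the lowest of the set, and a fold of 4.43. Kdm6a (chrX:18028358-18029024) had pileup 16 and fold 6.70, the highest fold among the 9 genes found in control only. Chromosome X held 83 control and 72 COH peaks in all, and none of the latter was assigned to these genes. No peak in either list was assigned to Kdm1a, the amine oxidase demethylase also called LSD1, or to Kdm2b, which brings a form of PRC1 to CpG islands. None was assigned to the H3K4 demethylases Kdm5a and Kdm5b, to Kdm6b, which acts on H3K27, or to Kdm7a, which acts on H3K9 and H3K27.

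**Figure D2:**
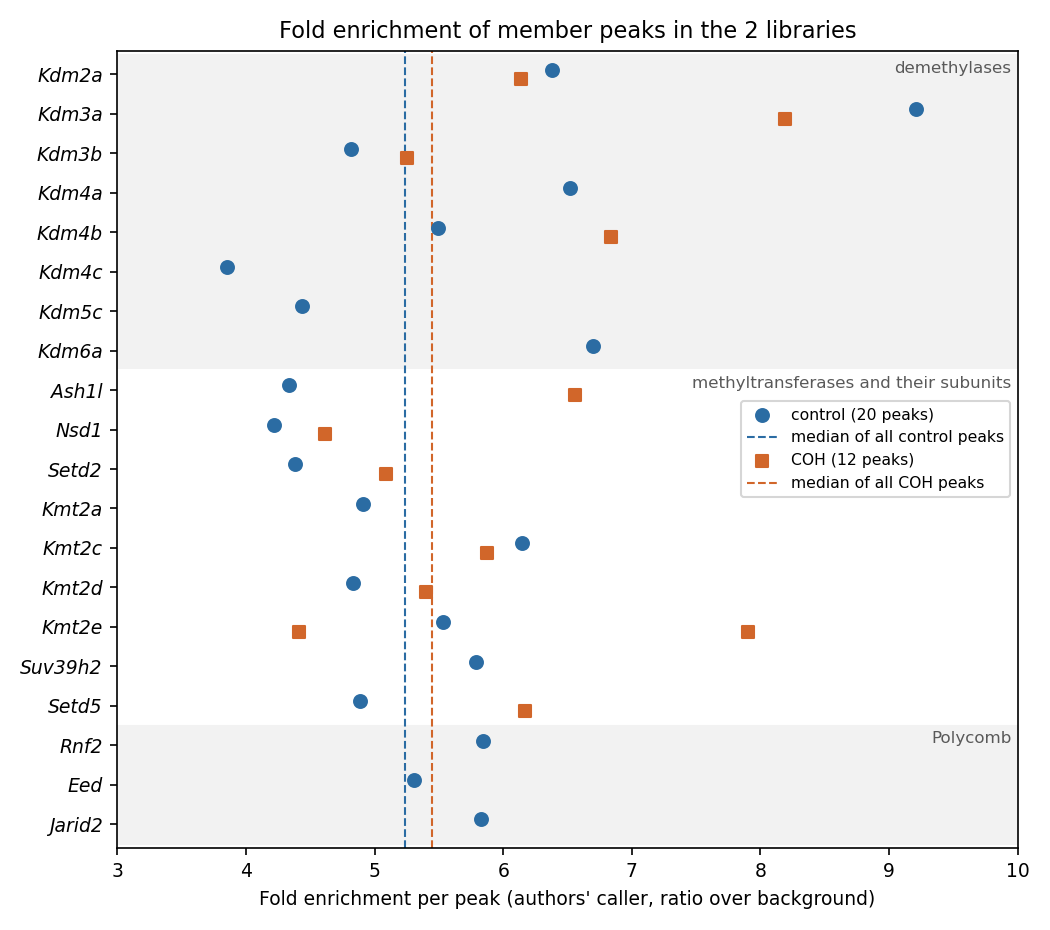
Fold enrichment of each peak (a linear ratio over background, as deposited) for the 20 genes with a peak, in control (circles) and COH (squares), with the median over all peaks of each list as a dashed line. Kdm3a has the highest fold in both lists, 9.21 and 8.19, and the squares are missing for 9 genes, among them all 3 Polycomb genes.

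Among methyltransferases and their subunits 9 of 18 (50%, 26.0 to 74.0) were in the control list and 7 (38.9%, 17.3 to 64.3) in the COH list. The shares of all protein-coding genes were 10.8% and 5.38%. Of the 6 genes of the set in the KMT2 and SETD1 families of H3K4 enzymes 4 were in the control list and 3 in the COH list, all in promoters. Kmt2c and Kmt2d, which methylate H3K4 at enhancers, had peaks in both lists. Those of Kmt2c nearly coincided, at chr5:25704047-25704980 in control and chr5:25704042-25704882 in COH, with pileups of 25 and 19, folds of 6.14 and 5.87 and summits 21 bp apart. Those of Kmt2d, at chr15:98769768-98770370 in control and chr15:98769456-98769821 in COH, shared 54 bp, 14.8% of the COH peak, with pileups of 20 and 17 and folds of 4.83 and 5.40, and their summits were 304 bp apart. The 2 lists thus marked the Kmt2d promoter at sites that barely touch.

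Kmt2e, a SET domain protein of the same family with little known enzyme activity, had 1 control peak and 2 COH peaks, and was the single gene of the set with more than 1 peak in a list. The control peak (chr5:23638008-23638788) had pileup 28 and fold 5.53. The first COH peak (chr5:23638008-23638398) lay inside it, with pileup 31 and fold 7.90. The second (chr5:23638976-23639277), nearer to the start, had pileup 17 and fold 4.41 and lay 187 bp beyond the control peak. Kmt2a, the enzyme known as MLL1 from leukaemia, had a promoter peak across its start in control (chr9:44791992-44793063), with pileup 26 and fold 4.91. The nearest COH peak lay 501.5 kb away.

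All 3 H3K36 methyltransferases of the set had a peak in both lists, with control folds of 4.21 to 4.38, among the lowest of the set. Nsd2 and Nsd3, outside the set, had no peak in either list. Ash1l had promoter peaks with pileup 14 and fold 4.33 in control (chr3:88857329-88857741) and with pileup 20 and fold 6.55 in COH (chr3:88857187-88857567), the highest ratio of COH over control fold among the overlapping pairs of the set, with summits 358 bp apart. Setd2, which places trimethylation of H3K36 along genes, had promoter peaks across its start, at chr9:110361139-110361970 in control and chr9:110361240-110361857 in COH, with pileups of 13 and 14 and folds of 4.38 and 5.09. Nsd1, which places dimethylation of H3K36, had a control peak in the 5' UTR (chr13:55358360-55358771) at 765 bp from its start with a pileup of 28, and a COH peak in exon 1 (chr13:55359036-55359381) at 1441 bp with a pileup of 19. Their folds were 4.21 and 4.61, and 264 bp separated them. Setd5, a SET domain protein whose enzyme activity is debated, had promoter peaks with pileups of 19 and 17 and folds of 4.89 and 6.17 (chr6:113053944-113054443 in control and chr6:113053909-113054301 in COH).

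Of the 5 H3K9 methyltransferases of the set, Suv39h2 alone had a peak, in the 5' UTR in control (chr2:3475629-3476032), with pileup 15 and fold 5.79. No peak was assigned to Setdb1, Suv39h1, Ehmt1 or Ehmt2, to the H3K79 methyltransferase Dot1l, to the H3K4 enzymes Setd1a and Setd1b, or to Wdr5 and Men1, which are subunits of H3K4 methyltransferase complexes. The interval of the H3K9 share in control, 0.505 to 71.6% for 1 of 5, overlaps that of every other class, so that the classes are not shown to differ.

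Of the 11 Polycomb genes 3 (27.3%, 6.02 to 61.0) were in the control list and 0 (0 to 28.5) in the COH list. Both intervals hold the shares over all protein-coding genes, 10.8% and 5.38%, so the count of 0 is not set apart from that background. Eed, the PRC2 subunit that binds methylated H3K27, had a promoter peak across its start at chr7:89629954-89630443, with pileup 17 and fold 5.31. Jarid2, which helps PRC2 bind chromatin, had a peak in the 5' UTR (chr13:44883677-44884394) at 727 bp from its start in the lists, with pileup 24 and fold 5.83. RefSeq holds a second Jarid2 start 497 bp downstream of the first. Rnf2, the enzyme of PRC1 that ubiquitinates H2A, had a peak in the 5' UTR (chr1:151376019-151376486) at 220 bp with pileup 17 and fold 5.85. All 3 were above the control median fold. The nearest COH peaks lay 149.0, 140.1 and 254.3 kb from the starts of Eed, Jarid2 and Rnf2. No peak was assigned to Ezh1, Suz12, Bmi1, Ring1, Pcgf2, Phc1, Cbx2 or Cbx7.

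A strong site in the body of Jarid2 was present in both lists under another gene's name. It was annotated to intron 4 of Jarid2 and assigned to Dtnbp1, at chr13:45023045-45023486 in control and chr13:45023048-45023498 in COH. Its pileup was 125 in control and 70 in COH and its fold 21.2 and 17.4, ranks 16 and 23 of the 2 lists. No peak of the set itself reached these folds. Counted by host gene rather than by the assigned name, Jarid2 thus had a peak in COH as well.

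Most peaks of the set lay near gene starts. Promoters held 14 of its 20 control peaks (70.0%) and 9 of its 12 COH peaks (75%), against 46.9% and 40.6% of all peaks, and 5' UTRs held 6 and 1. None lay in an intron, where 11.9% of all control and 16.4% of all COH peaks lay, or in distal intergenic sequence, where 18.5% and 26.7% did. Within 1000 bp of the start lay 19 of the 20 control peaks and 9 of the 12 COH peaks, where 61.6% of all control and 51.1% of all COH peaks did. The exceptions were the Kdm4c peak in control and, in COH, those of Kdm3b and Nsd1 and the outer Kmt2e peak. The peaks of the KMT2 genes of the set were centred upstream, all 4 summits in control and all 4 in COH, with a median distance of 778 and 636 bp from the start. The COH summits came from 3 genes, with 2 from Kmt2e, whose outer peak, at -1041 bp, lies beyond the 1000 bp limit used next. Over all peaks within 1000 bp of a start, 756 of 1897 control summits and 405 of 874 COH summits lay upstream, at a median distance of 195 and 192 bp in either direction. Upstream summits were not particular to the KMT2 genes. In the whole set 10 of 20 control and 9 of 12 COH summits lay upstream, in both lists also those of Ash1l, Kdm3a, Kdm4b and Setd5. Kmt2b, of the same family but outside the set, had a promoter peak in control only, with its summit at -66 bp.

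**Figure D3:**
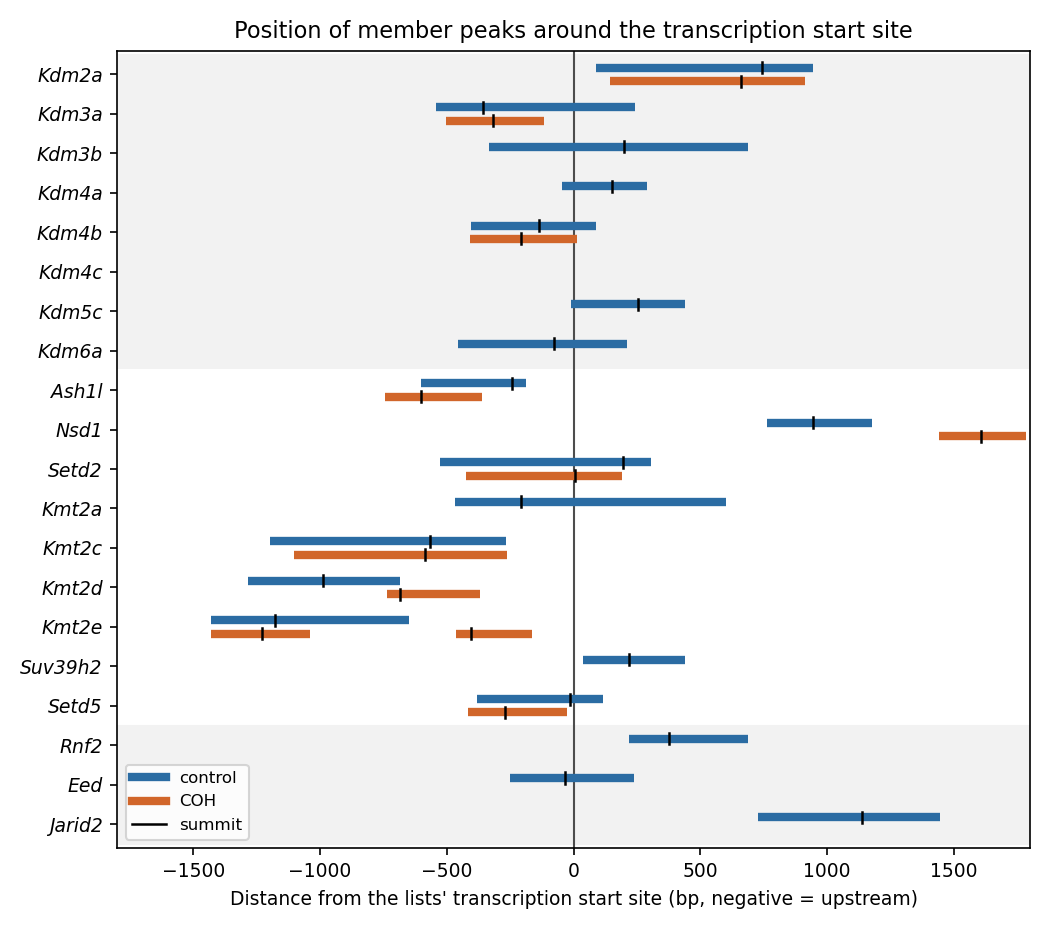
Extent of each peak around the transcription start site used in the lists (bp, negative upstream), in control (blue) and COH (orange), with the summit as a black tick. The Kdm4c peak in control, at 9405 bp, and the Kdm3b peak in COH, at -5640 bp, lie outside the plot. The peaks of Kmt2c, Kmt2d, Kmt2e and Ash1l lie upstream of the start in both lists, and those of Kdm2a and Nsd1 downstream.

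Overlap between the lists was found for 9 genes. Of the 20 control peaks of the set 9 overlapped a COH peak by at least 1 bp, against 34.3% of all control peaks, and of the 12 COH peaks 9 overlapped a control peak, against 61.8% of all COH peaks. The genes were Kdm2a, Kdm3a, Kdm4b, Kmt2c, Kmt2d, Kmt2e, Ash1l, Setd2 and Setd5. In 8 of the 9 the pair lay in promoters and in Kdm2a in the 5' UTR. The fold was higher in COH in 6 pairs (Ash1l, Kmt2e, Setd5, Kdm4b, Setd2 and Kmt2d) and lower in 3 (Kdm2a, Kmt2c and Kdm3a), with ratios of COH over control from 0.889 to 1.51 and a median of 1.16. Over all 1060 overlapping pairs the median ratio was 0.980, with quartiles of 0.852 and 1.12, and over the 471 pairs in promoters 1.00. The fold was higher in COH in 46.1% of all pairs and in 51.0% of those in promoters. The pileup ratio had a median of 0.895 in the set and was below 1 in 5 of 9 pairs, where it was 0.852 over all pairs and below 1 in 70.1% of them. The scaling of pileup and fold is not stated, and these ratios are a description of 2 libraries.

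By median, control fold was lower for the genes found in both lists. The control peaks of the 11 genes also found in COH had a median fold of 4.89, and those of the 9 genes in control only had a median of 5.79. Over all control peaks within 1000 bp of a start the order was the other way, 5.58 for genes also in COH and 4.97 for the rest. By pileup the set and the whole list ran the same way, with medians of 25 and 17 in the set and 23 and 16 in all such peaks. The peaks were also longer where the gene was found in both lists, with a median of 782 bp against 469 bp in the set and 574 bp against 420 bp in all. The folds of the groups overlapped. Genes in both lists ranged from 4.21 (Nsd1) to 9.21 (Kdm3a), the highest of the set, and genes in control only from 3.85 (Kdm4c), the lowest, to 6.70 (Kdm6a). These medians rest on 11 and 9 peaks and were not tested.

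**Figure D4:**
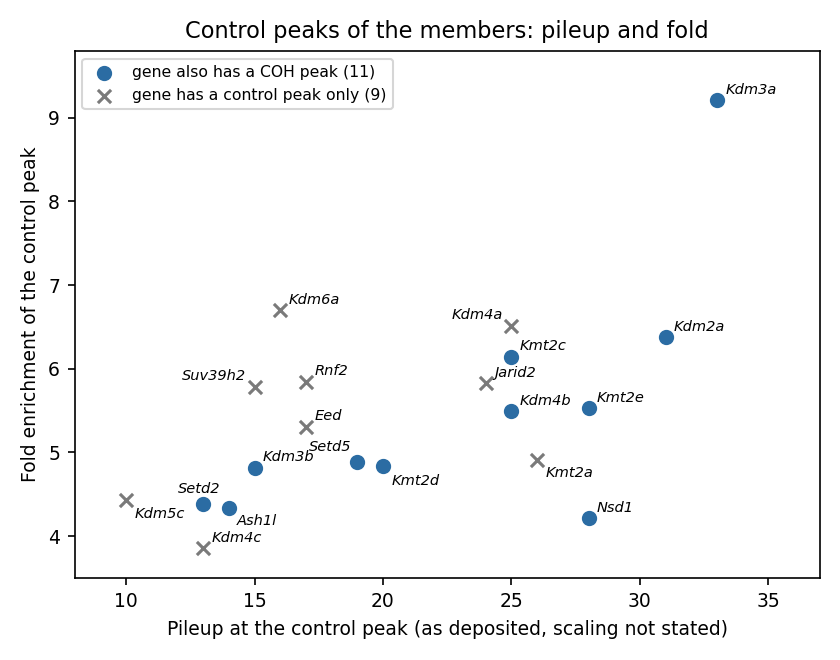
Pileup (x axis, as deposited) and fold enrichment (y axis) of the 20 control peaks, for genes that also have a COH peak (circles) and genes with a control peak only (crosses). Crosses lie at a median pileup of 17 and a median fold of 5.79, circles at 25 and 4.89.

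Other genes of the pathway, 64 histone methylation and Polycomb genes outside the set, were counted beside the set. In control 18 (28.1%, 17.6 to 40.8) had a peak and in COH 7 (10.9%, 4.51 to 21.2), against 10.8% and 5.38% of all protein-coding genes. The intervals overlap those of the set, and 5 genes were in both lists, against 3.53%. These 5 were the demethylase Kdm1b, the methyltransferase Setmar, the PRC2 subunit Aebp2, the PRC1 subunit Pcgf1 and Ezh2, the main enzyme of PRC2. Kdm1b had overlapping promoter peaks with folds of 6.85 and 7.11 and Setmar with folds of 6.34 and 6.74. Of these other Polycomb genes 10 of 25 were in the control list and 5 in the COH list. Ezh2 had a control peak in its 5' UTR with a fold of 4.93, and its other 7 control peaks and all 5 COH peaks were distal, from -60366 to -90647 bp. All Ezh2 peaks lay in windows of 100 kb that hold at least 5 peaks.

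Over the whole lists the median fold was 5.24 over the control and 5.45 over the COH peaks and the median pileup 17 and 16, and the number of reads behind the lists is unknown. For the set the median folds were 5.40 and 6.01. A peak list carries no expression, so the tissue label could not be checked against it: Nrl, Crx, Rcvrn, Pax6, Rbpms and Rlbp1, genes that mark retinal cell types, had 0 peaks in both. Rac1 itself had 0 peaks, and Kif2a, the kinesin gene of the study's title, had 1 in control and 0 in COH. A library with a non-specific antibody was not analysed here, and whether the peaks of the set are specific to Rac1 was not tested.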

How the data were processed

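CUT&Tag libraries of retinal nuclei were made with a Rac1 antibody, per the labels. Reads were handled with cutadapt 1.9.1 and Bowtie2 and the build mm9 is named, per the submitters' processing notes. For the peak caller, its settings and any background library, the record is: not given in the sources used here. Per the file headers the authors deposited, for each library, a list of peaks with pileup (a signal of unstated scaling), fold enrichment (a ratio over background) and positions, lengths and distances to the TSS. A pair of columns whose headings hold a spreadsheet error was taken, by place and deposited values, for the -log10 p-value and -log10 q-value. The authors' scores per peak are used to describe and rank peaks within a list.

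The members and lists were chosen with earlier results of these data known. Gene names, or synonyms held by 1 gene, were looked up in the RefSeq table of GRCm38.p6. For 81 of 3179 genes compared, the start in the lists and in RefSeq differed by at most 100 bp, and the median shift was 133 kb. Positions in the lists therefore do not match GRCm38.p6 and cannot be looked up in it. Which build they follow, the named mm9 or another, is not settled, and they are printed as deposited. Promoter windows are RefSeq's, with their own coordinates in GRCm38.p6. They were found for 33 of 43 genes (76.7%), too few for a check of base composition over the set, which is therefore void. Windows whose RefSeq start lay over 100 bp from that of the lists were not printed. Overlap meant at least 1 shared bp. Shares have exact Clopper-Pearson 95% intervals. With 1 library per group no test was made. Described in full are genes with peaks in both lists, with a promoter peak, among the 5 highest folds of the set in a list or with 2 or more peaks in a list, and others are named with fold and position. Other pathway genes are named if in both lists, in the top 100 of a list by fold or beside members of their own family. Promoters are printed for up to 6 genes, first those with overlapping promoter peaks by mean fold, then those with the highest-fold promoter peak in 1 list. Python 3.11.15, pandas 2.3.3 and scipy 1.17.1 were used, and the overlap step was tested on simulated data. Alternatives are given in the closing section.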

Additional observations from a re-analysis of the deposited data

How the results depend on the processing

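Of 70 alternative values for the main counts and medians, 52 were counts within 1.5 times or unchanged medians and 18 moved, where any change of a median counts as a move. With peaks above the median fold of their own list alone, 11 genes of the set had a control peak, 7 a COH peak and 5 both. Overlapping peaks fell to 5 in control and 5 in COH, and promoter peaks to 7 genes in control and 4 in both lists. The medians became 5.85 and 6.55 by the alternative's construction. With the control list cut to as many of its strongest peaks as the COH list holds, 11 genes had a control peak and 5 a peak in both, 5 peaks of each list overlapped, 7 genes had a control promoter peak and 4 a promoter peak in both, and the control median was 5.85. When peaks needed a -log10 q of 5 or more, the medians were 5.79 and 6.17. Shares of all protein-coding genes were not computed under these 3 settings. The Polycomb counts under them were 3 and 0, as before. The demethylase count in control went from 8 to 5 under each, and in COH from 4 to 3 under the first and the last. The methyltransferase count in control went from 9 to 3 under the first and second and to 7 under the third, and in COH from 7 to 4 under the first and to 6 with the limit on q. A reciprocal overlap of 50% left 7 overlapping peaks in each list. With peaks within 1000 bp of each other taken as shared, 10 control and 11 COH peaks were shared. The promoter counts of 14 and 8 genes became 19 and 9 with any peak within 1000 bp of the start. Of all protein-coding genes 8.37% and 3.8% had such a peak. With 5' UTR peaks added to promoter peaks the counts were 20 and 9. Removal of clustered peaks, exact symbols and a limit of 10 kb to the start changed none of the counts. The alternatives for the class counts, not the class counts themselves, were added with the data already seen. No paired analysis was possible because each group holds 1 library. The lists give no depth, so a missing peak cannot be told apart from a weak one.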
